A study of Mus musculus with 6 samples.

Results

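The forkhead genes described here are 9 transcription factor genes that specify lineages of endoderm, mesoderm, forebrain and epithelium: Foxa1, Foxa2, Foxc1, Foxc2, Foxd1, Foxf1, Foxf2, Foxl2 and Foxn1. They were chosen by name, and all 9 have a row among the 24453 gene symbols of the deposited count files. Their RNA was sequenced from epidermal cells isolated out of mouse back skin at postnatal day 0. The sort kept EpCAM-positive, Sca1-positive cells with high α6-integrin, which are interfollicular epidermis enriched for progenitors. Of the genotype Ring1a-/- Ring1b-/-, 3 libraries are called K1, K2 and K3 after their replicate numbers. Another 3 libraries, labelled Control with no further genotype, are called C1, C2 and C3. The labels give neither the deleted parts nor any Cre line, and they do not say whether a library is 1 animal or a pool, so the spread behind each p-value is that between libraries and may be partly technical.

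Forkhead factors bind DNA through a winged-helix domain, and several of them, Foxa1 and Foxa2 above all, can open compact chromatin for other factors. Ring1a and Ring1b, encoded by Ring1 and Rnf2, carry the ubiquitin ligase activity of PRC1, a Polycomb repressive complex that keeps many developmental transcription factor genes silent outside their own lineages. In skin, Foxn1 belongs to the epithelium itself: it is the gene mutated in nude mice and acts in hair formation and keratinocyte differentiation. The others are known chiefly from other tissues, or from the dermis beneath, and Foxc1 also from hair follicle stem cells.

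The libraries held 31187270, 18951665 and 29651209 counts in K1, K2 and K3 and 26599231, 22699108 and 29193535 in C1, C2 and C3. At these depths a gene with no count could still stand at 0.0975 to 0.154 CPM in the knockout libraries and 0.103 to 0.131 CPM in the control libraries, the levels of 3 counts. CPM are counts scaled to the TMM-adjusted library size. All 8 defining keratinocyte markers were detected, at a summed 25697 to 30807 CPM in the knockout libraries and 29501 to 43824 CPM in the control libraries. Of these 8, Trp63 and Col17a1 fell, to 1016 ± 108 and 1955 ± 171 CPM in the knockout libraries, against 1759.8 ± 30.4 and 3259.5 ± 274 CPM in the control libraries (SD; edgeR adjusted p = 0.0176 and 0.0278). Ring1 itself had 1.66, 5.20 and 14.2 CPM in K1, K2 and K3 and 30.9, 17.1 and 3.90 CPM in C1, C2 and C3. The order was against the labels in replicate 3, where the library labelled knockout held more Ring1 than the library labelled control, so every direction here is that of libraries named by their labels. The sex-linked transcript Xist was high in K1, K2 and C3 (6133, 4736 and 1757 CPM) and 4.48 to 10.5 CPM in K3, C1 and C2. The libraries with little Ring1 and those with much Xist are the same, so these 2 splits cannot be told apart. Rnf2 averaged 59.5 ± 4.35 CPM in the knockout libraries and 51.3 ± 10.5 CPM in the control libraries (SD, n = 3 each). Since the labels do not give the deleted part, whole-gene counts of Rnf2 check no label.

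In the knockout libraries 4 of the 9 genes rose: Foxf2, Foxd1, Foxl2 and Foxc2. Together the control libraries held 1 count of these 4 genes, a single Foxd1 count in C1, whereas each of the 4 was counted in K1, K2 and K3. Foxn1 and Foxc1 were expressed in both groups, Foxf1 and Foxa1 were low and uneven, and Foxa2 had no count in any library. The comparison across the whole table called 7.17% of 14890 tested genes higher and 2.98% lower in the knockout libraries (edgeR quasi-likelihood test, Benjamini-Hochberg adjusted p under 0.05). Of the 9 genes 8 met the count filter and were tested, 4 were called higher and none lower. The other 4 tested genes had adjusted p of 0.0693 to 0.906. Foxf2, Foxd1, Foxl2 and Foxc2 met the filter only through the libraries in which they were high. The median log2 fold change of the 8 tested genes was 5.35, or 3.83 with the 3 genes that lack control counts set at their bounds. Over all tested genes the median was 0. Entry through the filter raises the median of the 8, so it is a description and no separate support for a rise. For 5 of the 9 genes every knockout library lay above every control library in CPM, and for none below. Over the tested genes the shares were 17.6% above and 14.8% below.

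**Figure D1:**
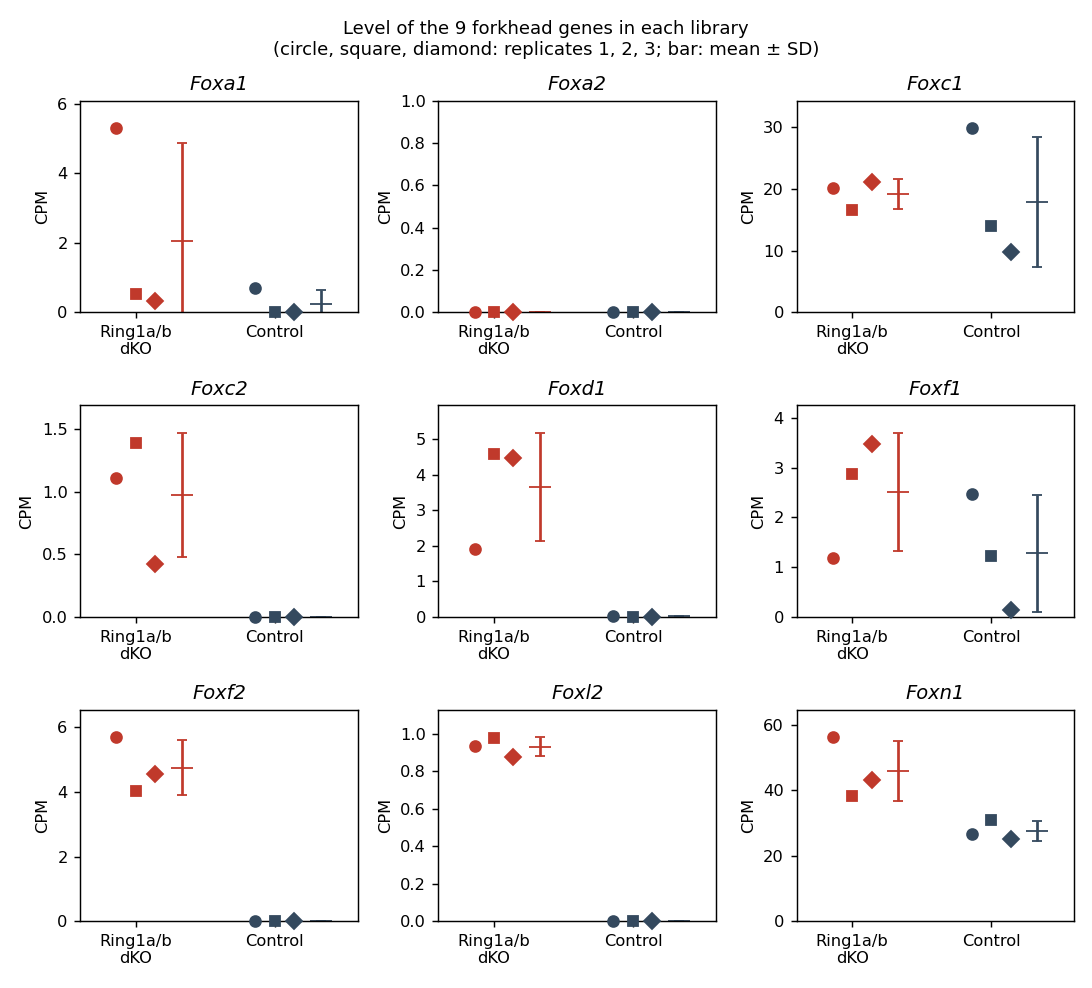
CPM of each of the 9 forkhead genes (vertical axis, linear, own scale per gene) in the 3 Ring1a/b double knockout libraries (red) and the 3 Control libraries (blue); circles, squares and diamonds are replicates 1, 2 and 3, and the bar beside them is the mean ± SD, cut at 0. Foxc2, Foxd1, Foxf2 and Foxl2 lie at or near 0 in the Control libraries and above it in each knockout library.

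Foxf2, a factor of gut and craniofacial mesenchyme and of the pericytes of brain vessels, had the lowest adjusted p of the 9. It had 5.68, 4.02 and 4.55 CPM in K1, K2 and K3, that is 164, 78 and 140 counts, against 0 counts in C1, C2 and C3. The knockout libraries were close to each other and all stood well above the detection floor. The gene was thus at least 127-fold higher, measured against a floor of 3 counts over the control group (edgeR adjusted p = 0.00207, higher in 3 of 3 libraries). Foxf2 lies on chromosome 13 at 31625816 to 31631403 on the plus strand (GRCm38, GENCODE M21) and has 2 exons.

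Foxd1, which marks the stromal progenitors of the kidney and patterns the retina and the ventral forebrain, had 1.90, 4.58 and 4.48 CPM in K1, K2 and K3 against 0.0375, 0 and 0 CPM in C1, C2 and C3. K1 was the lowest of the knockout libraries and still held 55 counts, while the control libraries held 1 count in all. The ratio of counts, scaled by library size, was 281 (95% exact interval 50 to 11133, counting error only; edgeR adjusted p = 0.00303). Foxd1 is a single-exon gene on chromosome 13 at 98354242 to 98359305, plus strand.

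Foxl2, the factor that maintains granulosa cells of the ovary and acts in eyelid development, was low but even. It had 0.935, 0.978 and 0.877 CPM in K1, K2 and K3 (27, 19 and 27 counts) against 0 counts in each control library. The SD of the knockout libraries, 0.0507 CPM, was the smallest among the 4 genes. Foxl2 was at least 24.2-fold higher (edgeR adjusted p = 0.0166). This call was lost without K2, K3 or C3 (edgeR adjusted p = 0.0573 to 0.0684). It held without K1, C1 or C2. Foxl2 is a single-exon gene on chromosome 9 at 98955288 to 98958543, plus strand.

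Foxc2, a factor of lymphatic valves, blood vessels and axial skeleton, had 1.11, 1.39 and 0.422 CPM in K1, K2 and K3 (32, 27 and 13 counts) against 0 counts in each control library. K3 was the lowest of the knockout libraries. Foxc2 was at least 23.9-fold higher (edgeR adjusted p = 0.0228). Its call was lost without K1, K2, C1, C2 or C3 (edgeR adjusted p = 0.0525 to 0.0880) and held without K3 (edgeR adjusted p = 0.0444). Foxc2 is a single-exon gene on chromosome 8 at 121116171 to 121118895, plus strand.

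Of the 9 genes, 3 had no control count and at least 1 count in each knockout library. Of the 19884 symbols counted in any library, 0.724% had this pattern and 0.342% the opposite one. Foxf2 and Foxd1 were called in each of the 6 fits that left out 1 library. The number of the 9 genes called fell to 2 without K2 or without C3, to 2 when only replicates 1 and 2 entered and to 2 with the Xist level as a covariate, and in each of these it was Foxf2 and Foxd1 that remained. In the same 4 fits 4.22%, 4.12%, 2.37% and 4.28% of all tested genes were called higher. K3, the knockout library with the most Ring1, held 4.55 CPM of Foxf2, 4.48 of Foxd1, 0.877 of Foxl2 and 0.422 of Foxc2, the last 2 being the lowest of their group. C3, the control library with the least Ring1, held 0 counts of all 4 genes. In RNA from bulk sorted cells, more cells that express a gene and more RNA per cell cannot be told apart.

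**Figure D2:**
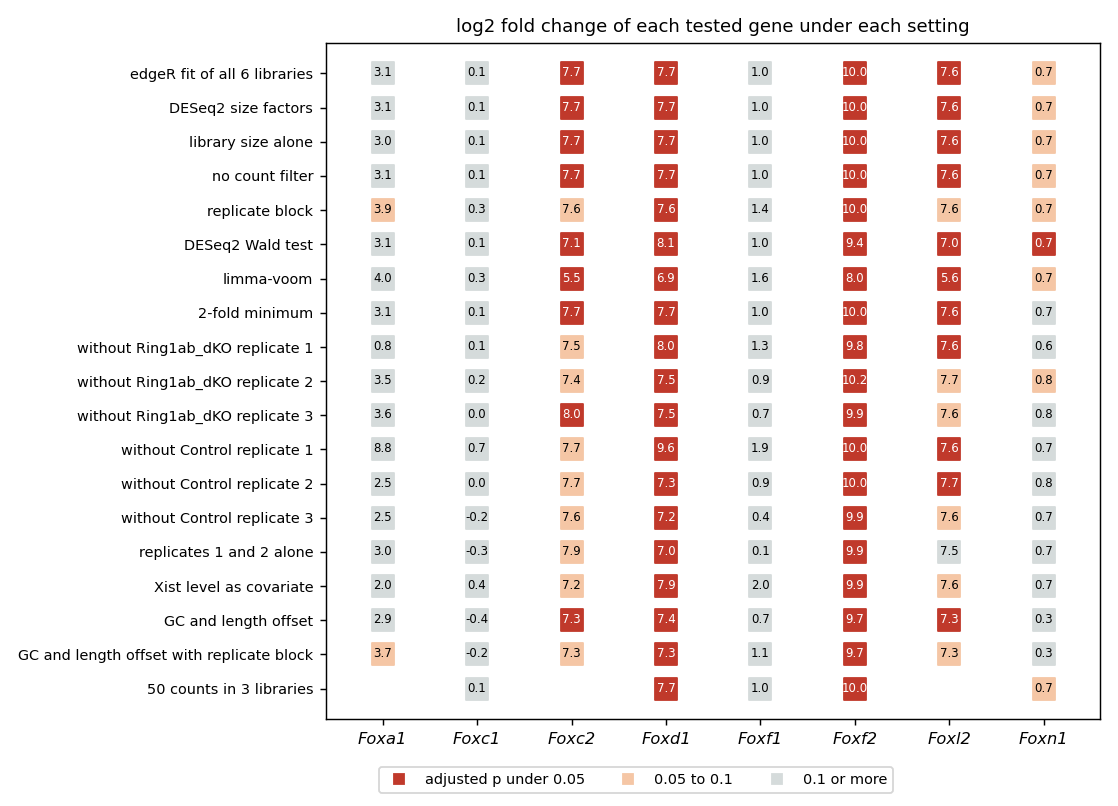
Fitted log2 fold change, knockout over Control, of each of the 8 tested forkhead genes (columns) in the edgeR fit of all 6 libraries and under each alternative (lines down the page); red squares have an adjusted p under 0.05, light orange 0.05 to 0.1 and grey 0.1 or more. Foxd1 and Foxf2 are red under every setting, Foxc2 and Foxl2 change colour when single libraries are left out, and an empty place is a gene that a stricter count filter removed.

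The promoters of Foxf2, Foxl2 and Foxd1 are printed because these genes had at most 1 control count and were called higher, beside that of Foxn1, which was expressed in both groups. Each runs from 250 bases before to 50 bases after the RefSeq start, 5′ to 3′ on the strand of the gene (RefSeq, GRCm38.p6), in lower case with every CG dinucleotide in capitals. The windows are chr13:31625566-31625865 for Foxf2 (plus strand), chr9:98955357-98955656 for Foxl2 (plus), chr13:98353995-98354294 for Foxd1 (plus) and chr11:78386559-78386858 for Foxn1 (minus). The RefSeq and GENCODE M21 starts of Foxl2 differ. Its window lies wholly inside the single exon of GENCODE M21, which starts at 98955288.
Foxf2: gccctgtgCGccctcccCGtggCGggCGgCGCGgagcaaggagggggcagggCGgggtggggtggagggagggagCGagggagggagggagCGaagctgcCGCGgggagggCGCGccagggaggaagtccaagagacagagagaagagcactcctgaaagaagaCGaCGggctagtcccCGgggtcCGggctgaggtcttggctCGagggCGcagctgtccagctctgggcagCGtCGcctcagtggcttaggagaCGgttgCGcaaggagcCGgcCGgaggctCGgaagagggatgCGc
Foxl2: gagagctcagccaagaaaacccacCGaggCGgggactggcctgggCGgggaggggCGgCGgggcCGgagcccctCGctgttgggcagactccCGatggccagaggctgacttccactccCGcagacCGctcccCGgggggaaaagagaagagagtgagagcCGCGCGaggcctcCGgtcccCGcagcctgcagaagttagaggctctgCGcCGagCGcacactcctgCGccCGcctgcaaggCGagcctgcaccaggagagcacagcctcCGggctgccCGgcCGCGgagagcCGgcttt
Foxd1: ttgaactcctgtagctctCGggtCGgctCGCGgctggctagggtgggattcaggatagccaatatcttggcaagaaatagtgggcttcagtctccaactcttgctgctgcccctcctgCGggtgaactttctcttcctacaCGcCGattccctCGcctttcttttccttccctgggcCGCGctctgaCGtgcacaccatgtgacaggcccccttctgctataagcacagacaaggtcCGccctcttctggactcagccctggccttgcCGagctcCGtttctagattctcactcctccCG
Foxn1: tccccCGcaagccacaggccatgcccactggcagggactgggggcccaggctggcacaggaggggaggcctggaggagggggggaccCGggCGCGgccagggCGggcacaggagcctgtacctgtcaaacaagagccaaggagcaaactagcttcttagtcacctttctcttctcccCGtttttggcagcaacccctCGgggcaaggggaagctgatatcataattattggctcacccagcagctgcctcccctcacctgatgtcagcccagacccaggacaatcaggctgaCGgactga

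CG-rich promoters in general are elements to which variant PRC1 complexes are known to be recruited. Binding of PRC1 to the windows printed here was not tested. The Foxf2 and Foxl2 windows each held 27 CG dinucleotides, more than 84.5% of 32841 promoters in the RefSeq table, where the median was 7. Foxd1 held 15, more than 65.4% of promoters, and Foxn1 held 8, more than 51.3%. Foxc1 and Foxa1, which were not called, had 32 and 26, more than 90.5% and 83.1% of promoters. The 3 Foxa2 starts had 12, 23 and 13. The Foxa1 window and the Foxa2 windows with 23 and 13 lie inside the genes as annotated in GENCODE M21. In all, 7 of the 9 genes matched the table. The forkhead motif, TGTTTAC or on the other strand its complement GTAAACA, was found once, in the Foxa1 window, and in 3.65% of all promoters. The motif TATAAA, or TTTATA for the other strand, was found in 1 Foxa2 window and in 13.6% of all promoters. These are matches of letters, not binding sites, and the 2 motifs were searched on both strands.

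**Figure D3:**
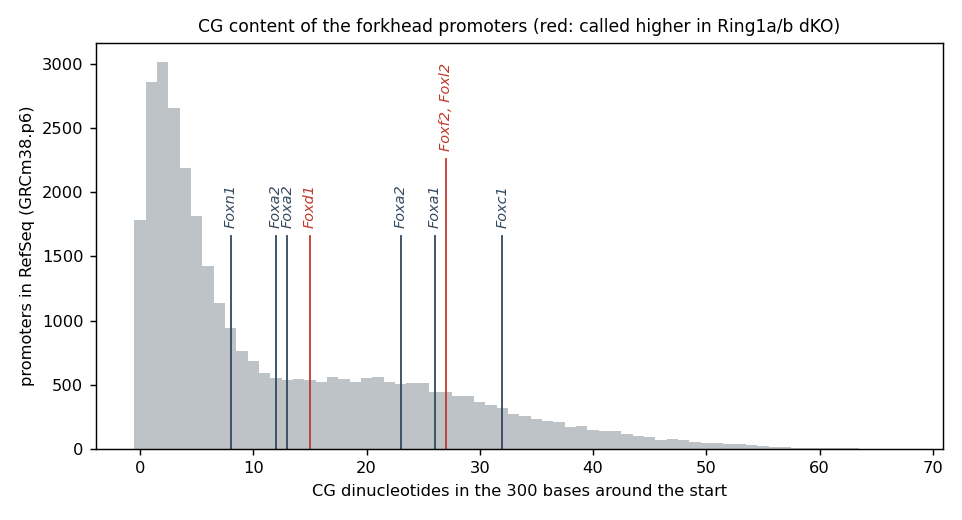
Number of CG dinucleotides (horizontal axis) in the 300 bases around the start of each of 32841 RefSeq promoters (grey bars, vertical axis number of promoters), with the windows of the 7 matched forkhead genes marked by lines, red for genes called higher in the knockout libraries and blue for the others. Foxf2 and Foxl2 share 27, Foxc1 has the most with 32, and Foxn1 the fewest with 8.

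Foxn1 was the most abundant of the 9 in both groups. It had 56.1, 38.3 and 43.2 CPM in K1, K2 and K3 against 26.8, 31 and 25.1 CPM in C1, C2 and C3. All 3 knockout libraries were above all 3 control libraries. The log2 fold change was 0.73 ± 0.22 (SE, n = 3 each), which did not pass in edgeR (adjusted p = 0.0693, unadjusted p = 0.00853) and passed in DESeq2 (adjusted p = 0.0242), where 11.0% of tested genes were called higher. Foxn1 lies on chromosome 11 at 78357577 to 78386558, minus strand, with 9 exons.

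Foxc1, a factor of eye, skull, vessels and hair follicle stem cells, is the closest relative of Foxc2 and was expressed in both groups. It had 20.1, 16.5 and 21.1 CPM in K1, K2 and K3 and 29.8, 14.0 and 9.75 CPM in C1, C2 and C3. The knockout values all lay inside the control range. On the log2 scale the difference was 0.11 ± 0.39 (SE; edgeR adjusted p = 0.906), and its sign turned under 5 of 18 alternatives, including an offset for GC content and length (-0.37) and leaving out C2 (-0.04) or C3 (-0.19). Foxc1 is a single-exon gene on chromosome 13 at 31806633 to 31812476, plus strand.

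Foxf1, a factor of lung and gut mesenchyme and of endothelium, had 1.18, 2.88 and 3.48 CPM in K1, K2 and K3 and 2.48, 1.22 and 0.137 CPM in C1, C2 and C3. The groups overlapped, because C1 exceeded K1. The difference of 0.97 ± 0.91 on the log2 scale (SE) did not pass (edgeR adjusted p = 0.569). Unlike its relative Foxf2, Foxf1 was thus counted in every control library, with 66, 28 and 4 counts. Foxf1 lies on chromosome 8 at 121084386 to 121088144, plus strand.

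Foxa1, a pioneer factor of liver, lung, prostate and breast epithelium, had 5.30, 0.515 and 0.325 CPM in K1, K2 and K3 and 0.713, 0 and 0 CPM in C1, C2 and C3. K1 held 153 of the 173 knockout counts and C1 all 19 control counts. Its log2 fold change of 3.08 ± 1.65 (SE) did not pass (edgeR adjusted p = 0.299) and was 0.79 without K1 and 8.75 without C1 (edgeR adjusted p = 0.831 and 0.1). Without C1 no control count is left, so the size of the 8.75 depends on the prior count. K1 and C1 also stood apart from the other 4 libraries on the second principal component of log CPM, at 62.7 and 55.3 against -38.8 to -15.2. The summed level of 8 hair follicle markers was the highest of its group in the same libraries. It was 1620.1 CPM in K1 (1281 and 1138 CPM in K2 and K3) and 1082 CPM in C1 (939 and 1038 CPM in C2 and C3). The single markers did not all share this order. Sox9, Shh and Edar were highest of their group in K1 and in C1 (Sox9 at 460 and 307 CPM). Krt17 was lowest of its group in C1 (362 CPM), and Gata3 and Krt71 were lowest in K1 (124 and 0.173 CPM). Among the control libraries Krt25 and Krt71 were highest in C2. The part of these markers in the Foxa1 values was not tested. Foxa1 lies on chromosome 12 at 57540628 to 57546916, minus strand. Foxa2, a factor of endoderm, node and floor plate on chromosome 2, had 0 counts in all 6 libraries, which allows a level of up to 0.0975 to 0.154 CPM in each.

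Set per kilobase of exon, so that genes can be compared with each other, the knockout levels ran from Foxn1 (14.3 CPM per kb) through Foxc1 (3.29), Foxf2 (2.01), Foxf1 (1.04), Foxd1 (0.722), Foxa1 (0.615) and Foxc2 (0.357) to Foxl2 (0.286), with Foxa2 at 0. Foxn1, Foxc1 and Foxf2 had ranges over the knockout libraries that did not touch those of their neighbours in this order (Foxf1 at 0.487 to 1.44 and Foxf2 at 1.70 to 2.40 CPM per kb). From Foxf1 downwards each gene overlapped the next. In the control libraries the order was Foxn1 (8.6 CPM per kb), Foxc1 (3.06), Foxf1 (0.530), Foxa1 (0.0714) and Foxd1 (0.00247), followed by 4 genes with no count, and from Foxf1 to Foxd1 neighbouring ranges overlapped. Foxf2 thus followed Foxc1 in the knockout libraries, where its lowest value exceeded the highest of Foxf1.

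Of 35 other forkhead genes 20 were tested, 3 rose and none fell, with a median log2 fold change of 0.26, also with the 1 gene lacking control counts at its bound. Foxe1, a factor of thyroid, palate and hair follicle, averaged 1.52 ± 0.401 CPM in the knockout libraries and had 1 control count, a count ratio of 117 (95% exact interval 20.5 to 4642; edgeR adjusted p = 0.00897). Foxd2, a paralog of Foxd1, had 1.66, 0.360 and 0.942 CPM in K1, K2 and K3 and no control count, at least 27.9-fold higher (edgeR adjusted p = 0.0257). Foxd2 was called in no comparison that left out 1 library: it missed the threshold without K2, C1, C2 or C3 (edgeR adjusted p = 0.0506 to 0.0754) and did not meet the count filter without K1 or K3, whereas that of Foxe1 held without any 1 library.

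In the comparison of all 6 libraries without covariates, the forkhead genes that control epidermis did express were not called. Of all 44 family members 19 had a control mean of at least 1 CPM, from 1.28 CPM for Foxf1 to 309 CPM for Foxk1, and none of these passed, with log2 fold changes of -0.88 to 0.97. All 7 called genes had a control mean under 1 CPM. Among all tested genes, 21.7% of the 1713 with a control mean under 1 CPM were called higher and 0.0% lower, and of the 13177 at or above it 5.29% were called higher and 3.37% lower. Low genes entered the test only if they were counted in some library, so the first share is raised by the filter. With the offset for GC content and length, 2 expressed forkhead genes were called lower, the cell cycle factor Foxm1 (log2 fold change -1.07) and Foxo6 (-1.41; edgeR adjusted p = 0.0429 and 0.0235), beside the same 3 higher genes. That offset moved the median of all genes by -0.15 and turned the sign of Foxo6, which was 0.26 without it. The offset called 6.57% of all tested genes lower, or 6.54% with the replicate block, against 2.98% without either. Foxm1 was also called lower without K1 (-0.99, edgeR adjusted p = 0.0471) and with the replicate block (-0.69, edgeR adjusted p = 0.0461). With the block and the offset, Foxm1 (-1.1) and Foxo6 (-1.45) were both called lower (edgeR adjusted p = 0.0123 and 0.0111). Foxb1 and Foxb2, named after their values were seen, had 0 control counts and 13, 6 and 33 and 19, 5 and 16 counts in K1, K2 and K3. They did not meet the count filter, and without it Foxb1 was called higher.

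**Figure D4:**
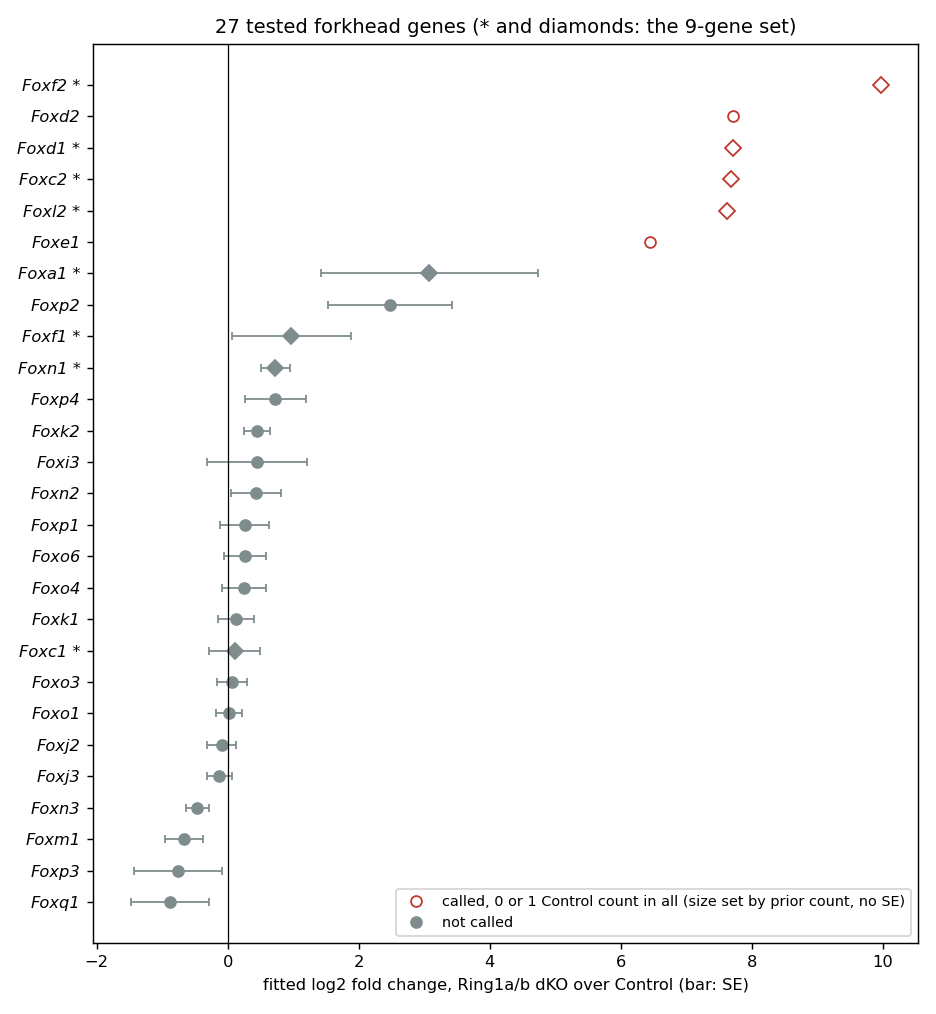
Fitted log2 fold change, knockout over Control (horizontal axis; bars are SE), of 27 forkhead genes that met the count filter, with the 9-gene set marked by stars and diamonds. The 6 called genes (open red symbols) had 0 or 1 Control count, so the size of their fitted values depends on the prior count, and the other 21 lie between -0.88 and 3.08.

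In both clusters of forkhead genes, 1 gene was called and its tested forkhead neighbours were not. Whether the called genes differ from these neighbours in fold change was not tested. On chromosome 13, Foxf2 and Foxc1 lie 175.2 kb apart, and Foxq1, an epithelial and hair shaft factor, lies 64.8 kb from Foxf2 on the other side. Foxf2 rose, with no control count, while Foxc1 had a log2 fold change of 0.11 and Foxq1 of -0.88 (1.95 ± 1.10 CPM in knockout and 3.58 ± 1.20 CPM in control libraries, SD; edgeR adjusted p = 0.416). On chromosome 8, Foxf1 and Foxc2 lie 28 kb apart and Foxl1 9.0 kb beyond Foxc2. Foxl1, a factor of gut mesenchyme, had 0 counts in all 6 libraries beside the called Foxc2 and was not tested. Foxf1 averaged 2.51 ± 1.19 CPM in the knockout and 1.28 ± 1.17 CPM in the control libraries (SD, log2 fold change 0.97 ± 0.91 SE). The Foxc2 call held in 1 of the 6 fits that left out 1 library. Between Foxf1 and Foxc2 lies Mthfsd, at 5.86 ± 0.974 CPM in the knockout libraries and 9.93 ± 1.83 CPM in the control libraries (SD; log2 fold change -0.76, edgeR adjusted p = 0.183), which was called lower with the GC and length offset (-1.21; edgeR adjusted p = 0.0353).

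**Figure D5:**
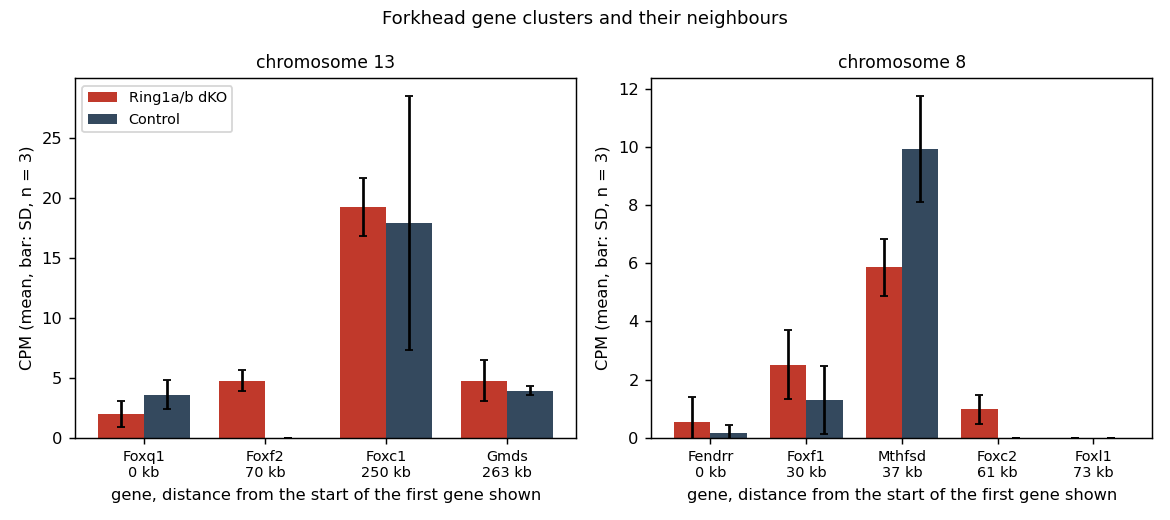
Mean CPM (bars, linear axis from 0; error bars are SD of 3 libraries) of the genes in the Foxq1-Foxf2-Foxc1 cluster on chromosome 13 and the Fendrr-Foxf1-Foxc2-Foxl1 cluster on chromosome 8, knockout in red and Control in blue, with each start's distance from the first gene's start in kb. Foxf2 and Foxc2 have no blue bar, and Foxl1 has neither.

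Of the 16 genes nearest to the 9 on either side, 7 were tested, 1 rose and none fell. The one that rose was Foxl2os, the antisense transcript that starts beside Foxl2. It had 0.623, 6.13 and 5.17 CPM in K1, K2 and K3 and no control count, at least 98.3-fold higher (edgeR adjusted p = 0.0133), so K1 held far less of it than K2 and K3 although Foxl2 itself was even across the 3. No source used here says whether strand was counted, and the annotated ends of Foxl2 and Foxl2os overlap (98955288 for Foxl2, 98955299 for Foxl2os), so reads there cannot be assigned to either. Fendrr, the divergent noncoding partner of Foxf1, starting 1276 bases away, had 2, 30 and 0 counts in K1, K2 and K3 and 13, 0 and 0 counts in C1, C2 and C3, with no common pattern with Foxf1. Ttc6, beside Foxa1, had 23, 2 and 4 counts in K1, K2 and K3 and 0, 2 and 1 in C1, C2 and C3, highest in the library with the most Foxa1. The other tested neighbours, Mipol1, Gmds, Btf3, Faim and Unc119, had log2 fold changes of -0.43 to 0.27.

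Hedgehog signalling, which is known to induce Foxf1, Foxf2, Foxa2 and Foxl1 in other tissues, had members that fell. Of 13 tested genes of that list none rose and 3 fell: the coreceptors Cdon (156 ± 34.7 CPM in knockout and 399 ± 95.4 CPM in control libraries, SD) and Gas1 (116 ± 14.5 CPM in knockout and 225 ± 40.1 CPM in control libraries), and the transcription factor Gli2 (169.7 ± 26.3 CPM in knockout and 343 ± 115 CPM in control libraries; edgeR adjusted p = 0.00949, 0.0152 and 0.0369). The median log2 fold change of the tested list was -0.59. Ptch1, the receptor and a standard target of the pathway, was named after its values were seen and missed the threshold, at 975, 438 and 446 CPM in K1, K2 and K3 and 1937, 1026 and 1657 CPM in C1, C2 and C3 (log2 fold change -1.31 ± 0.36, SE; edgeR adjusted p = 0.0546). It passed in DESeq2 (adjusted p = 0.00409), in limma-voom (adjusted p = 0.0345) and in edgeR with library size alone (adjusted p = 0.0344). Dhh, of the same list, went the other way and also missed the threshold (log2 fold change 3.85 ± 1.06 SE, edgeR adjusted p = 0.0542). Its mean was 1.82 ± 0.91 CPM in knockout and 0.117 ± 0.12 CPM in control libraries (SD). Dhh passed as higher in DESeq2 (adjusted p = 0.003) and in edgeR without the count filter (adjusted p = 0.0473). The part of these genes in the Foxf2 values was not tested. The 3 lower calls became 1 without K2, K3 or C3, 2 without C1, 5 without K1 and 0 when only replicates 1 and 2 entered. They became 0 with a 2-fold minimum and 7 under the offset for GC content and length. Under that offset 6.57% of all tested genes were called lower, against 2.98% without it.

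Of the factors that act with Foxa1 and Foxa2 in endoderm and floor plate, 8 were tested, 4 rose and none fell, with a median log2 fold change of 2.03. Gata4, which opens chromatin together with Foxa factors at the onset of liver development, had 21.2, 16.5 and 16.8 CPM in K1, K2 and K3 against 0.713, 0 and 0 CPM in C1, C2 and C3 (log2 fold change 6.21 ± 1.08, SE; edgeR adjusted p = 0.00865). Gata6 averaged 7.36 ± 0.934 CPM in the knockout and 0.743 ± 0.354 CPM in the control libraries. Prox1, of liver and lymphatic endothelium, averaged 34.3 ± 1.77 CPM in the knockout and 4.31 ± 4.08 CPM in the control libraries (SD; edgeR adjusted p = 0.00605 for Gata6 and 0.0184 for Prox1). The liver products Ttr and Afp had 0 counts in every library. The Prox1 call was lost without K2 or C2 (edgeR adjusted p = 0.0547 and 0.0591), and the 4 calls became 2 without K2. In the same libraries Foxa2 had no count and Foxa1 was not called.

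Genes around Foxl2 and Foxd1 in gonad and kidney stroma gave 3 higher and no lower calls among 8 tested, with a median log2 fold change of 0.25. Aldh1a2, an enzyme that makes retinoic acid in mesoderm, had 3.46, 3.35 and 2.83 CPM in K1, K2 and K3 against 0.150, 0 and 0 CPM in C1, C2 and C3 (log2 fold change 5.86 ± 1.11, SE; edgeR adjusted p = 0.0128). The other 2 were Wt1 of kidney and gonad and Dmrt1 of testis, which Foxl2 opposes in the gonad (edgeR adjusted p = 0.00196 and 0.00165). Wt1 had 22.8, 4.94 and 4.91 CPM in K1, K2 and K3 against 0, 0 and 0.0342 CPM in C1, C2 and C3. Dmrt1 was at least 151-fold higher from no control count. Cyp19a1, the aromatase gene that Foxl2 regulates in granulosa cells, had 0 counts in all 6 libraries, and Ren1, a product of cells that descend from Foxd1-expressing kidney stroma, had none either. Fst, another Foxl2 target and also an epidermal gene, differed by -0.31 ± 0.72 on the log2 scale (SE; edgeR adjusted p = 0.844).

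Of the genes tied to Foxn1 in hair and epidermis 6 were tested, 1 rose and 2 fell, with a median log2 fold change of 0.44. Krt85, a keratin of the hair shaft cuticle and matrix, had 2.04, 5.05 and 3.67 CPM in K1, K2 and K3 against 0.0750, 0.656 and 0.0342 CPM in C1, C2 and C3 (log2 fold change 3.83 ± 1.02, SE; edgeR adjusted p = 0.0490). Other hair keratins of the list were too low to test. Krt35 and Krt31 had 0 and 1 counts in the knockout and 44 and 13 in the control libraries. Krt34 and Krt86 had 10 and 29 counts in the knockout and 0 and 15 in the control libraries, with overlapping groups. Hair keratins are near-identical paralogs, so their counts are uncertain. Lef1, a Wnt effector of the hair matrix, averaged 119.6 ± 20.9 CPM in the knockout and 259 ± 61.0 CPM in the control libraries, and Pou2f3, a factor of suprabasal keratinocytes, 194 ± 66.1 CPM in the knockout and 390.2 ± 62.2 CPM in the control libraries (SD; edgeR adjusted p = 0.0145 and 0.0473). Dsg4, a hair desmoglein that needs Foxn1 in follicles, differed by 0.38 ± 0.85 on the log2 scale (SE; edgeR adjusted p = 0.839). The Krt85 call was lost without any 1 library except C2 (edgeR adjusted p = 0.0573 to 0.151), that of Pou2f3 without any except K3 (0.0525 to 0.14), and that of Lef1 without K2 (0.0698), so none of these 3 calls held without K2.

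Markers of other skin cells were read beside the 9 genes, since Foxc1, Foxc2, Foxd1, Foxf1 and Foxf2 are known from dermal mesenchyme and vessels. Dermal fibroblast markers summed to 440 to 731 CPM in the knockout and 248 to 799 CPM in the control libraries, with 0 of 7 tested markers called. The ranges overlapped, and the part of fibroblast RNA in the values of the 9 genes was not tested. Endothelial markers summed to 46.4 to 131 CPM in the knockout and 17.5 to 90 CPM in the control libraries, with 1 of 8 called higher (Prox1). Pericyte and smooth muscle markers summed to 109 to 304 CPM in the knockout and 77.3 to 88.9 CPM in the control libraries, with 0 of 6 tested markers called. Cspg4 made up most of that sum, at 97.5 to 270.1 CPM in the knockout and 61.4 to 83.3 CPM in the control libraries. The tested markers went both ways. Log2 fold changes were 2.33 for Acta2, 1.47 for Pdgfrb, 1.1 for Cspg4, -0.83 for Abcc9, -0.95 for Myh11 and -1.85 for Rgs5. Acta2 averaged 14.1 ± 10.8 CPM in the knockout and 2.8 ± 1.82 CPM in the control libraries (SD, n = 3 each). Rgs5 averaged 0.959 ± 1.45 CPM in the knockout and 3.51 ± 1.19 CPM in the control libraries. The part of these markers in the Foxf2 values was not tested. Merkel cell markers summed to 54.4 to 104 CPM in the knockout and 4.85 to 10.1 CPM in the control libraries. All 4 tested markers were called higher (Krt18, Sox2, Isl1 and Piezo2), and Krt18 and Piezo2 made up most of the knockout sum. Sox2 and Isl1 had no control count, so they met the filter only through the knockout libraries. Atoh1, Krt8 and Krt20 were too low to test, and their groups overlapped. They had 6, 67 and 71 counts in the knockout and 11, 38 and 7 in the control libraries. Rab3c was at 0. Melanocyte markers summed to 19.8 to 34.1 CPM in the knockout and 14.6 to 19.1 CPM in the control libraries, with 0 of 6 called. Schwann and nerve markers summed to 131 to 155 CPM in the knockout and 112 to 145 CPM in the control libraries (0 of 7 called), and immune markers to 73.9 to 251 CPM in the knockout and 139 to 306 CPM in the control libraries (0 of 5 called). Of the hair follicle markers 2 of 8 fell, the inner root sheath keratins Krt25 and Krt71.

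The genes whose log CPM ran most like those of the 4 called factors over the 6 libraries were low in the control group, at a mean of 0 to 0.853 CPM. For Foxl2 they were Pitx1 and Barx1 (Pearson r = 0.9993 each), for Foxc2 Zic5 and Onecut3 (r = 0.9999 and 0.9952), for Foxd1 Pou3f4 and Mmp17 (r = 0.9983 and 0.9975), and for Foxf2 Slc7a10 and Zkscan16 (r = 0.9992 and 0.9987). These values describe 6 points in 2 groups, and any gene that is off in one group and even in the other scores high: 599 tested genes exceeded 0.95 with Foxl2 and 610 with Foxf2. Foxn1 ran most like Pcbp4 and Gcnt2 (r = 0.9978 and 0.9916), Foxc1 most like Spns1 and Gm12657 (0.9956 and 0.9920), Foxf1 most like Pim2 and Xylb (0.9859 and 0.9823), and Foxa1 most like Tbc1d1 and Irx5 (0.9974 and 0.9931).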

How the data were processed

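RNA of sorted newborn epidermal cells (10 ng, amplified with the Nugen Ovation V2 system) was sequenced as single reads of 100 nucleotides, per the labels' protocols. The authors deposited raw counts per gene symbol, 1 file per library. Per the submitters' processing notes, the build was mm10 and the tools were HTSeq 0.6.1, TopHat2 2.0.13, DESeq2 1.6.3 and Cufflinks 2.2.1. No source used here gives their roles, the annotation or the strand, so antisense and overlapping genes may share reads.

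The count tables were compared in edgeR 4.0.16 (R 4.3.3) with TMM scaling, filterByExpr (minimum count 10, minimum total 15), a two-sided quasi-likelihood F test without covariates, Benjamini-Hochberg adjustment over all 14890 tested genes, and a prior count of 0.125 for fold changes. SE was taken as the log2 fold change over the square root of F. Alternatives used DESeq2 1.42.0, limma-voom 3.58.1, other filters and scalings, a replicate block, an Xist covariate, an offset for GC content and length (known for 97.8% of tested genes) and left-out libraries. The procedure was tested on simulated counts. Only genes with a mean above 1 CPM were changed there, so that test does not cover genes as low as Foxl2 and Foxc2. Folds against 0 control counts are bounds against 3 counts over the group. Likeness used log2(CPM + 0.5). Positions and exon lengths are from GENCODE M21, in which 23753 symbols matched 1 gene. No 2 libraries were copies, since chi-square divided by its degrees of freedom was at least 30.2 for each pair. PCR reads lack molecular identifiers, so intervals and floors cover counting error only.

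The 9 genes and all lists were chosen with earlier results of these data known. The genes named were the 9, Ring1 and Rnf2, the called genes ranked by p in each other list (up to 8 forkhead genes and 4 of each other list), the nearest genes on each side and the 2 most alike genes per tested factor. Other genes named (among them Foxk1, Foxm1, Foxo6, Ttr, Afp, Cyp19a1, Ren1, Fst and Dsg4) were chosen after their values were seen. Some genes counted in these lists are not reported here by name. Figures used matplotlib 3.10.9.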

Additional observations from a re-analysis of the deposited data

How the results depend on the processing

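Of 141 refitted log2 fold changes of the 8 tested forkhead genes, 119 kept their direction and side of the threshold, 16 lost the call (Foxc2 and Foxl2), 1 gained it (Foxn1 in DESeq2) and 5 changed sign, all of Foxc1: -0.04 without C2 and -0.19 without C3 (range -0.19 to 0.69 over the 6 left-out libraries), -0.27 with replicates 1 and 2 alone, -0.37 with the GC and length offset and -0.23 with that offset and the replicate block. Of the 9 genes, 4 were called, and 2 with 50 counts in 3 libraries (which leaves Foxa1, Foxc2 and Foxl2 untested), the replicate block, the block with the offset, replicates 1 and 2 alone or the Xist covariate, and 2 to 3 without 1 library. The 3 other forkhead genes became 1 with 50 counts or with replicates 1 and 2 alone, 5 with the offset (3 higher and 2 lower) and 2 to 3 without 1 library. The 1 neighbour called became 0 with 50 counts or with replicates 1 and 2 alone, and 2 with the offset. The 13 calls among partners and targets became 5 with a 2-fold minimum, 3 with replicates 1 and 2 alone and 6 to 13 without 1 library. Of all tested genes 1512 were called, which became 2535 in DESeq2, 568 with a 2-fold minimum, 439 with replicates 1 and 2 alone, 813 with the Xist covariate and 811 to 1393 without 1 library. The causes were not tested, beyond fewer genes or libraries entering the stricter filter and the left-out fits. The share of calls that were higher was 70.6%, and 47.3% with the offset. Relative to the shift of -0.15 that the offset gives all genes, Foxn1 stood at 0.46 and Foxc1 at -0.22. Scaling by library size alone moved no group mean CPM of the 9 genes by more than its SD.

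The replicate numbers do not meet the criterion for pairs: deviations from the group means correlated across genes at 0.175 for K1 with C1, 0.228 for K2 with C2 and 0.0773 for K3 with C3. Each library did correlate best with its own number, a hint from the data and not from the design. The replicate block gave 1451 calls and 2 of the 9 genes, without Foxc2 and Foxl2 (edgeR adjusted p = 0.0657 and 0.0646). With it Foxd2 lost its call (edgeR adjusted p = 0.0649) and Foxm1 was called lower (-0.69, edgeR adjusted p = 0.0461). With the block 6 Hedgehog genes were called lower, Ptch1 among them (edgeR adjusted p = 0.0117), or 8 with the block and the offset. In the same fits 2.92% and 6.54% of all tested genes were called lower. Depth limits the lowest genes: Foxl2 and Foxc2 rest on 73 and 72 knockout counts.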
